A study of Mus musculus with 12 samples.

Results

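The genes described here govern whether a cell dies by apoptosis. They are the BCL2 family, the caspases and their activating scaffold, the death receptors with their adaptors, the inhibitor of apoptosis (IAP) proteins, and p53 with its target genes. The set was given as 34 gene symbols in 7 roles. For each symbol the array's transcript cluster carrying that symbol alone was taken, and where a symbol had more than 1 such cluster the brightest over all arrays was used. In this way 32 of the 34 genes were measured, out of 22180 genes with a cluster of 1 symbol. The effector gene *Bax* and the p53 gene *Trp53* itself had no such cluster and were not analysed here.

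RNA came from intestinal epithelial cells released with EDTA from the ileum (S-IECs) and from the colon (L-IECs) of untreated mice aged 11 weeks, and was hybridized to Affymetrix arrays, 1 array per sample. All mice carried floxed alleles of *Nfat5*, the gene of an osmosensitive transcription factor. *Nfat5*fl/fl mice served as controls, and *Nfat5*IEC-KO mice had in addition *Vil-Cre*, a recombinase driven by the villin promoter and so active in epithelial cells along the whole intestine. Each of the 4 groups of tissue and genotype had 3 arrays, 12 in all. The study used these arrays to look for the mechanism by which NFAT5 acts on survival and proliferation of epithelial cells, so the genotype comparison asks which death genes differ without NFAT5, and the regional comparison asks how the death machinery of the ileum differs from that of the colon.

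In the mitochondrial route, BH3-only proteins sense damage and either block the anti-apoptotic BCL2 proteins or activate BAX and BAK directly, which then perforate the mitochondrial outer membrane. Released cytochrome c assembles with APAF1 into the apoptosome that activates caspase-9. In the receptor route, FAS, the TRAIL receptor and TNF receptor 1 recruit FADD and caspase-8, with the CFLAR protein as a brake, while p53 raises the transcription of genes that feed both routes or halt the cell cycle. In the intestine, shedding and apoptosis at the villus tip balance the cells made in crypts, and crypt cells of the small intestine are known to be more prone to radiation-induced, p53-dependent apoptosis than those of the colon, where BCL2 protects crypt cells.

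The deposited values are log2 array signals. They are relative levels, so that 1 unit is a doubling, and levels of different genes depend on their probes and were not compared by test. The measured genes were bright. Their median signal over the 12 arrays was 6.48, against 4.81 over clusters of 1 symbol, and 31 of the 32 lay above that median, the exception being the neuronal BH3-only gene *Hrk* at 3.40. *Cdkn1a* was the brightest at 9.73.

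The cells were epithelial and regionally distinct by their markers. The mean of 8 epithelial markers was 10.3 to 10.6 on all arrays, and that of 6 ileum markers was 11.1 to 11.6 in S-IECs against 6.75 to 6.88 in L-IECs. *Nfat5* itself averaged 8.08 ± 0.08 (SD, n = 3) in control S-IECs and 7.98 ± 0.13 in S-IECs labelled knockout, with overlapping arrays (log2 difference −0.10, limma adjusted p = 0.763). In L-IECs it averaged 7.49 ± 0.04 and 6.94 ± 0.05 without overlap (−0.55, adjusted p = 0.544). The groups are named here by their labels, and how the probes lie relative to the deleted part is not known here. The mean of 5 colon markers was 8.13 and 8.02 on S-IEC control replicates 2 and 3. It was 6.91 on control replicate 1 and 6.68 to 6.80 on the knockout arrays, against 10.2 to 10.7 in L-IECs. The 5 genes did not spread alike. In S-IECs the standard error of the genotype difference was 0.12 for *Slc26a3* and *Car4* and 0.27 for *Ang4*. In a fit to all 12 arrays comparing this difference between tissues, it was 1.34 for *Car1*, 0.70 for *Ang4* and 0.15 for *Car4*. The higher mean of replicates 2 and 3 may thus rest mostly on *Car1*. In bulk samples like these, fewer cells of a type and less RNA per cell cannot be told apart. The labels number the mice within a group, so p-values here measure the spread between 3 samples a group.

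**Figure D1:**
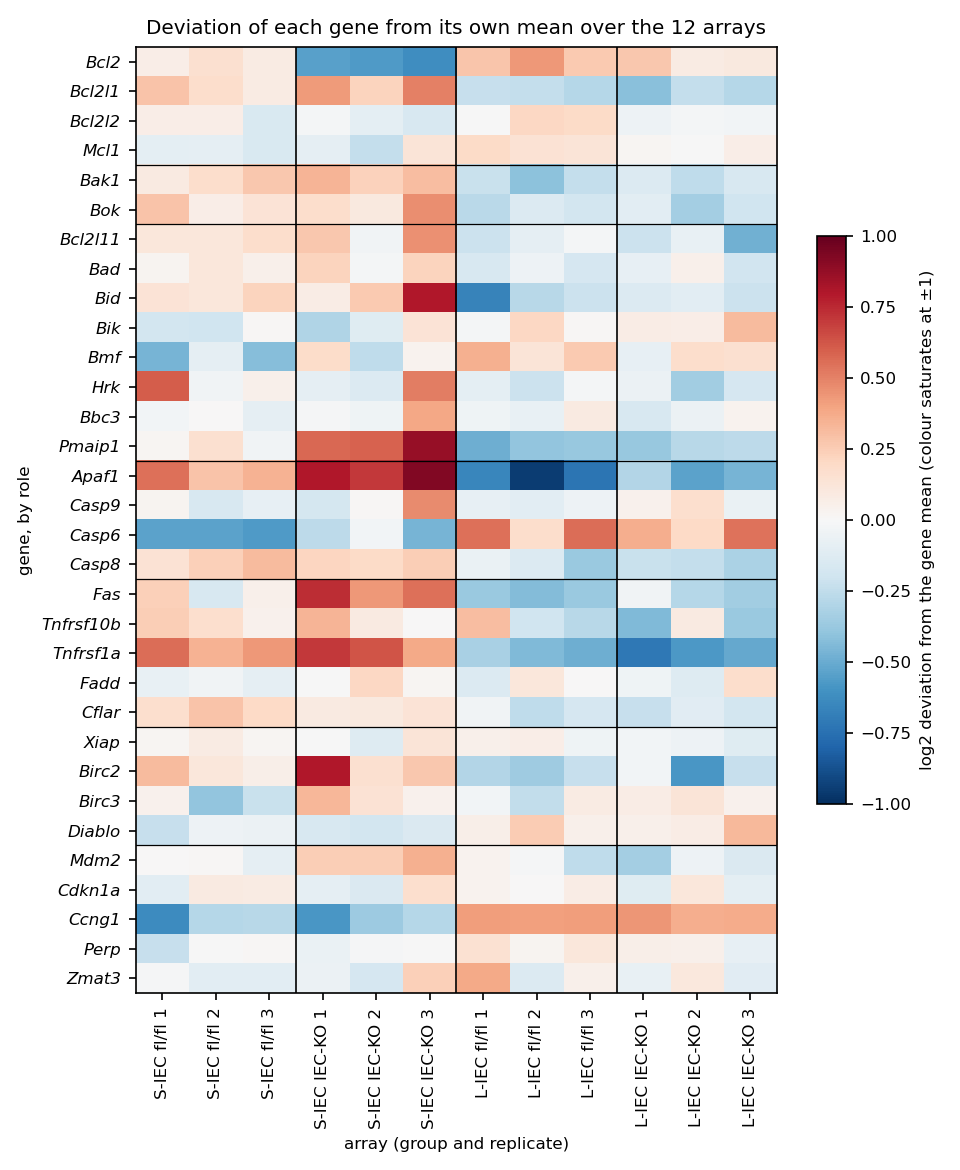
Each row is 1 of the 32 measured genes, grouped by role, and each column is 1 of the 12 arrays; the colour is the log2 signal minus the gene's own mean over the 12 arrays. *Bcl2* is low on the 3 S-IEC knockout arrays alone, *Apaf1* and *Tnfrsf1a* are high on all 6 S-IEC arrays, and *Casp6* and *Ccng1* are high on all 6 L-IEC arrays.

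In S-IECs, 6 genes had an unadjusted p under 0.05 between knockout and control, namely *Bcl2*, which was lower in the knockout, and *Pmaip1*, *Fas*, *Apaf1*, *Birc3* and *Mdm2*, which were higher. However, 0 of the 32 passed an adjusted p of 0.05 over all 25341 named clusters, of which 0% were lower and 0.00789% higher at that limit, so no gene is called changed here. The 1 lower gene makes 3.13% of the measured genes, against 8.23% of all named clusters lower at that unadjusted limit. The 5 higher genes stand against 5.81% of all clusters. The median log2 difference was 0.09 over the 32 genes and 0.01 over all clusters. It was positive for 22 of the 32 genes and for 13410 of the 25341 clusters.

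*Bcl2* encodes the founding anti-apoptotic protein of the family, which holds BH3-only proteins and effectors in check at the mitochondrial membrane. It lies on chromosome 1 at 106538176 to 106714290 (GRCm38.p6). Its log2 signal was 7.45, 7.55 and 7.46 in control S-IECs and 6.84, 6.81 and 6.76 in knockout S-IECs. All knockout arrays lay below all controls. The difference was −0.68 (standard error 0.10, limma adjusted p = 0.112), which is 1.61-fold lower. A second, much dimmer cluster of *Bcl2* (mean 3.20) differed by 0.15 in S-IECs, in the other direction, with an adjusted p of 0.763.

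The other anti-apoptotic genes did not share this. *Bcl2l1*, encoding BCL-XL, had values of 6.91, 6.79 and 6.70 in control and 7.04, 6.84 and 7.12 in knockout S-IECs, a difference of 0.20 with overlapping groups. *Mcl1*, whose protein is turned over rapidly and is needed in the intestinal epithelium, differed by 0.04 and *Bcl2l2* by −0.09. A second, dimmer cluster of *Mcl1* (mean 5.84) differed by −0.16, in the other direction, with a limma adjusted p of 0.755.

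*Pmaip1*, encoding the BH3-only protein NOXA, which neutralizes MCL1, read 6.84, 6.98 and 6.79 in control S-IECs and 7.40, 7.42 and 7.70 in knockout S-IECs. The groups did not overlap, and knockout replicate 3 was the highest. The difference was 0.63 (standard error 0.13, limma adjusted p = 0.130), or 1.55-fold. Of the 7 other BH3-only genes, none reached the unadjusted limit. They ran from −0.11 for *Hrk* to 0.31 for *Bmf*, whose product is released from the cytoskeleton on loss of attachment, and the p53 target *Bbc3*, encoding PUMA, differed by 0.15. The pore-forming effectors *Bak1* and *Bok* differed by 0.11 and 0.08.

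*Fas*, the receptor of FAS ligand, read 6.21, 5.82 and 6.03 in control S-IECs against 6.72, 6.41 and 6.53 in knockout S-IECs. Its groups were separate, with control replicate 1 closest to the knockout. The difference was 0.53 (standard error 0.14, limma adjusted p = 0.157). The remaining receptor-route genes lay closer to 0. *Tnfrsf1a* differed by 0.13, the TRAIL receptor gene *Tnfrsf10b* by −0.01, the adaptor gene *Fadd* by 0.14, the caspase-8 gene *Casp8* by −0.01 and *Cflar* by −0.11.

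*Apaf1*, the scaffold of the apoptosome, read 8.17, 7.90 and 7.97 in control and 8.42, 8.33 and 8.54 in knockout S-IECs, again without overlap. Its difference was 0.41 (standard error 0.12, limma adjusted p = 0.186). *Casp9*, which the apoptosome activates, differed by 0.18 with overlapping arrays. *Casp6*, an executioner caspase gene, read 5.58, 5.58 and 5.55 in control and 5.86, 6.09 and 5.65 in knockout S-IECs, a difference of 0.29 that missed the unadjusted limit.

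*Birc3*, encoding the IAP protein cIAP2 that acts in TNF receptor signalling, read 7.33, 6.89 and 7.06 in control and 7.61, 7.42 and 7.32 in knockout S-IECs. Control replicate 1 lay above knockout replicate 3, so the groups overlapped, and the difference was 0.36 (standard error 0.14, limma adjusted p = 0.305). Its neighbour on chromosome 9 and closest relative, *Birc2*, differed by 0.25, with knockout replicate 1 at 7.01 far above the other 2 at 6.37 and 6.47. *Xiap*, the direct caspase inhibitor, and *Diablo*, encoding the mitochondrial IAP antagonist, differed by −0.04 and −0.05.

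*Mdm2*, a p53 target whose product marks p53 for degradation, read 7.19, 7.20 and 7.10 in control and 7.44, 7.44 and 7.55 in knockout S-IECs. The groups were separate, at a difference of 0.31 (standard error 0.11, limma adjusted p = 0.241). *Pmaip1*, *Fas* and *Apaf1*, given above, are p53 targets as well. The other genes grouped with *Mdm2* lay near 0. *Cdkn1a*, encoding the cell cycle inhibitor p21, differed by −0.04, *Ccng1* by −0.01, the desmosomal gene *Perp* by 0.04 and *Zmat3* by 0.08.

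**Figure D2:**
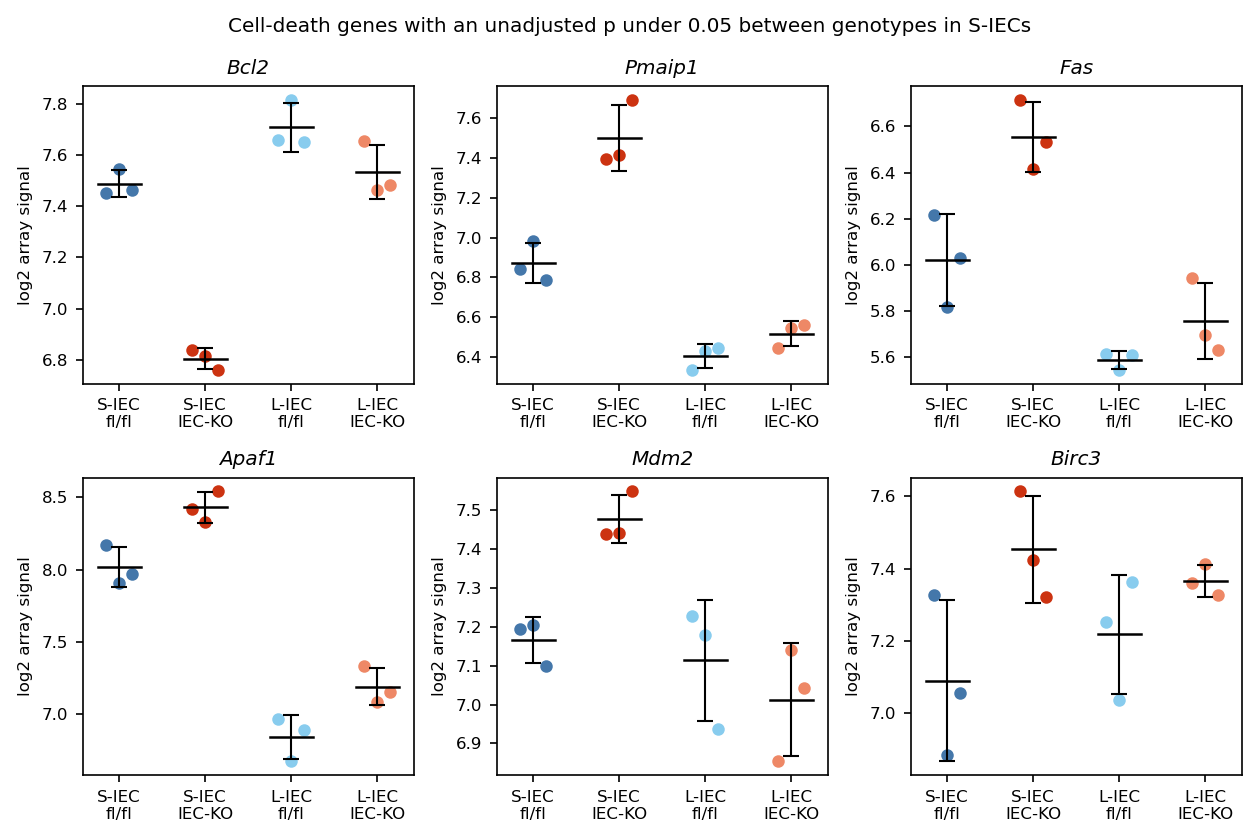
Log2 array signal (vertical axes, each with its own range) of 6 genes in the 4 groups; each point is 1 array, the long bar is the mean and the whiskers are the SD of 3 arrays. *Bcl2* lies at 6.76 to 6.84 in knockout S-IECs and at 7.45 or above in the other 3 groups, whereas *Birc3* overlaps between genotypes in both tissues.

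Counted by overlap rather than by p, 6 of the 32 genes were higher on all knockout arrays than on any control array of S-IECs (18.8%), against 9.8% of all named clusters. The 2 lower ones, *Bcl2* and *Cflar*, were 6.25%, against 10.4% of all clusters. Leaving out 1 array at a time, *Bcl2*, *Pmaip1*, *Fas* and *Apaf1* kept an unadjusted p under 0.05 in S-IECs, and the adjusted p of *Bcl2* ran from 0.0501 to 0.384. *Mdm2* lost the unadjusted limit without control replicate 3 or knockout replicate 3 (differences 0.28 and 0.27), and the 5 higher genes numbered 3 without control replicate 3. *Birc3* lost it without control replicate 2 or 3 (0.26 and 0.35) and without knockout replicate 1 or 2 (0.28 and 0.38). With control replicates 2 and 3 both left out, because of the colon marker mean above, *Bcl2* differed by −0.65 and *Pmaip1* by 0.66. *Fas* then differed by 0.34, *Apaf1* by 0.26, *Mdm2* by 0.28 and *Birc3* by 0.13. The lone control array is then assumed to vary like the knockout group.

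The cell type markers moved with genotype in S-IECs as follows. All 6 Paneth cell markers were lower in the knockout at an unadjusted p under 0.05 (median difference −1.30), with list means of 9.55 to 9.93 on control arrays and 8.13, 9.31 and 8.13 on knockout arrays. Of 6 cycling cell markers 5 were lower (median −0.79, control arrays 6.71 to 7.15, knockout arrays 5.95, 6.66 and 6.10), and of 6 stem cell markers 4 were lower (median −0.58). Knockout replicate 2 stood nearest the controls in these lists. On the same array *Fas* (6.41) and *Apaf1* (8.33) also lay nearest the controls, *Pmaip1* (7.42) and *Mdm2* (7.44) lay close to replicate 1, and *Bcl2* read 6.81 against 6.84 and 6.76 on the others. Other lists moved at the same unadjusted limit. Of 6 ileum markers 3 were higher in the knockout (median 0.22), namely *Lct* (1.10), *Apoa4* (0.85) and *Sis* (0.25). Of 5 colon markers 4 were lower (median −0.37), and of 8 epithelial markers 2 were lower (median −0.02). T cell and intraepithelial lymphocyte markers averaged 4.94 to 5.41 on control and 5.02 to 5.37 on knockout arrays. The part of these cell types in the differences was not tested. Knockout replicate 3 was the highest of its group for 20 of the 32 genes and replicate 2 the lowest for 17. In the other 3 groups an array was the highest for 7 to 13 and the lowest for 7 to 15.

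In L-IECs the genotypes were closer. *Apaf1* alone reached an unadjusted p under 0.05, so that 1 of the 32 genes was higher (3.13%), against 2.97% of all named clusters, and 0 were lower, against 3.35%. It read 6.97, 6.67 and 6.89 in control and 7.33, 7.08 and 7.16 in knockout L-IECs. The groups did not overlap, and the difference was 0.35 (standard error 0.12), with a limma adjusted p of 0.766 that was the smallest among the 32 genes. Without control replicate 2 (0.26) or knockout replicate 1 (0.28) it no longer had an unadjusted p under 0.05. The other 31 genes ran from −0.18 to 0.24, and the median over the 32 was −0.05, against 0.00 over all clusters.

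The genes that stood out in S-IECs had smaller differences in L-IECs. *Bcl2* read 7.66, 7.82 and 7.65 in control and 7.65, 7.46 and 7.48 in knockout L-IECs, a difference of −0.17 with overlap. *Pmaip1* read 6.33, 6.43 and 6.45 against 6.44, 6.55 and 6.56, a difference of 0.11 with overlap. *Fas* read 5.61, 5.54 and 5.61 against 5.94, 5.70 and 5.63, which did not overlap, at 0.17. *Mdm2* differed by −0.10 and *Birc3* by 0.15, both with overlap. By overlap, 3 genes (*Bcl2l2*, *Mcl1* and *Tnfrsf1a*) were lower on all knockout arrays (9.38%), against 6.24% of all clusters, and 3 (*Apaf1*, *Fas* and *Bid*) were higher, against 5.83%. By role, all 4 anti-apoptotic genes (−0.17 to −0.06) and all 5 measured genes of the p53 role (−0.12 to −0.02) had negative differences. None of these reached the unadjusted limit. Of p53 targets under other roles, *Pmaip1* (0.11), *Fas* (0.17) and *Apaf1* (0.35) were positive and *Bbc3* (−0.05) was negative. Differences were negative for 20 of the 32 genes and for 12566 of all 25341 named clusters.

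**Figure D3:**
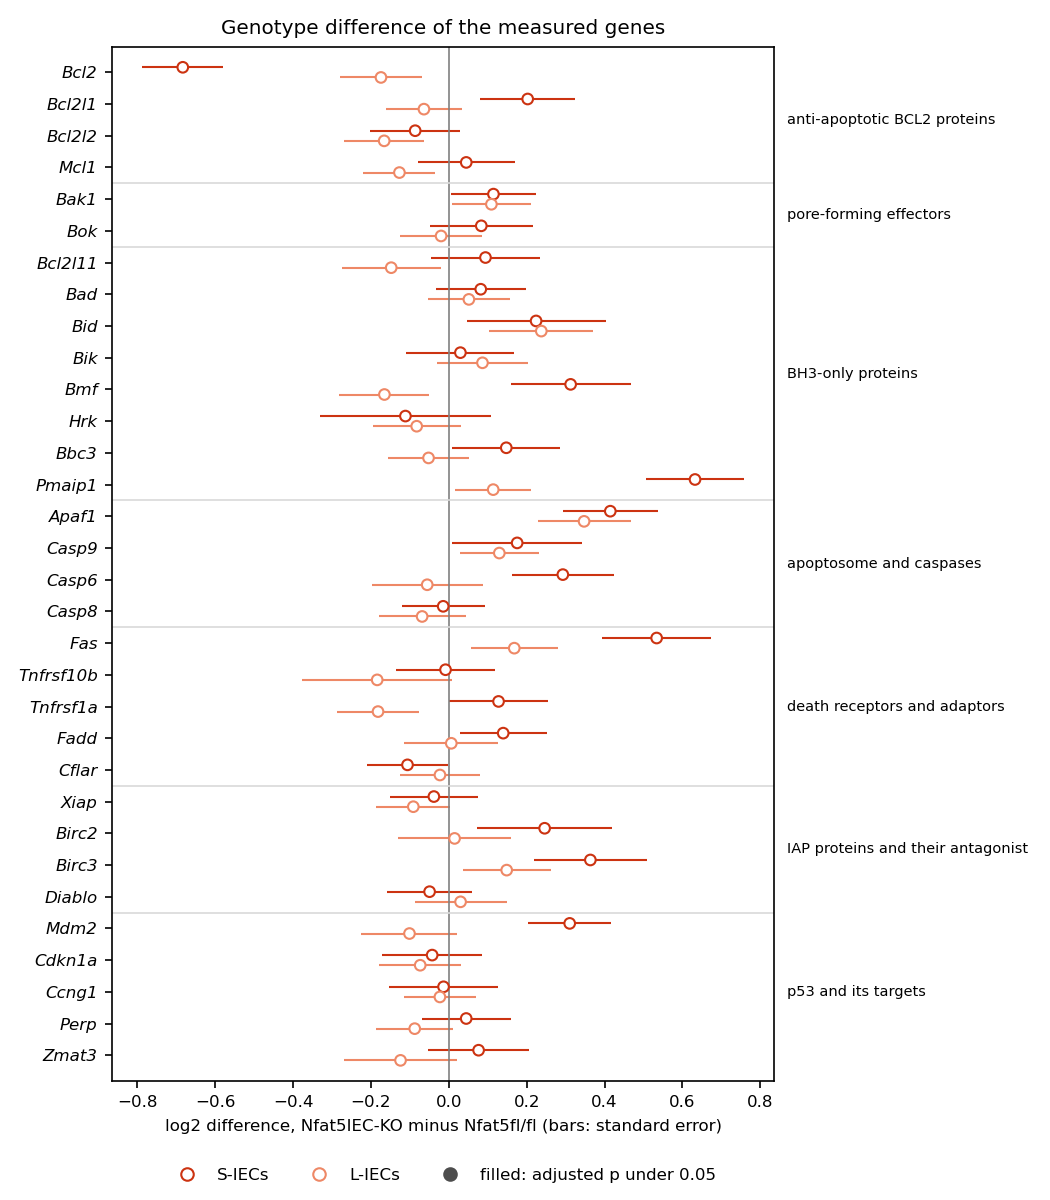
Log2 difference between *Nfat5*IEC-KO and *Nfat5*fl/fl for each of the 32 genes (horizontal axis, bars are the standard error) in S-IECs and in L-IECs, ordered by role. No point is filled, since 0 genes passed the adjusted limit in either tissue; *Bcl2* in S-IECs at −0.68 is the lowest point and *Pmaip1* in S-IECs at 0.63 the highest.

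An interaction term fitted to all 12 arrays compared the genotype difference of S-IECs with that of L-IECs. No gene passed the adjusted limit. At an unadjusted p under 0.05 there were 4 of the 32 genes (12.5%), against 10.8% of all named clusters. The difference in S-IECs minus that in L-IECs was −0.51 for *Bcl2* (standard error 0.14, limma adjusted p = 0.256), 0.52 for *Pmaip1* (0.15, adjusted p = 0.259), 0.41 for *Mdm2* (0.16, adjusted p = 0.354) and 0.48 for *Bmf* (0.20, adjusted p = 0.403). *Bmf* read 4.63, 5.01 and 4.67 in control and 5.27, 4.84 and 5.13 in knockout S-IECs, then 5.45, 5.22 and 5.35 in control and 5.01, 5.27 and 5.25 in knockout L-IECs, with overlap in both tissues. For *Apaf1*, the interaction was 0.07. *Bcl2* and *Pmaip1* kept the unadjusted limit without any 1 array. *Mdm2* lost it without control (0.36) or knockout (0.33) replicate 1 of L-IECs. *Bmf* lost it without replicate 1 or 3 of any S-IEC group or of control L-IECs, or without knockout replicate 1 of L-IECs, at values of 0.38 to 0.47. The count of genes at this limit was 2 without control replicate 1 of L-IECs and 6 without knockout replicate 2 of S-IECs.

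Between regions the differences were larger. At an adjusted p under 0.05, 10 of the 32 genes were higher in the ileum than in the colon of control mice (31.2%), against 7.2% of all named clusters, and 3 were lower (9.38%), against 10.4%. In knockout mice the counts were again 10 higher, against 10% of all clusters, and 3 lower, against 14.7%. These comparisons share no arrays with each other, though each shares its arrays with the genotype comparisons above. Of the 13 genes called in each, 10 were called in both, all with the same direction, which is 76.9% of each list. Over the 32 genes the regional differences of the genotypes correlated with Pearson r = 0.92. This r is a description across genes, which are not independent replicates. Neither the shared part nor r was computed over all named clusters, so they are not read as a trait of these genes. The genes of both lists were *Apaf1*, *Tnfrsf1a*, *Pmaip1*, *Fas*, *Bcl2l1*, *Bak1*, *Birc2* and *Casp8*, higher in the ileum, and *Casp6* and *Ccng1*, higher in the colon. By overlap, 13 genes were higher in all S-IEC arrays in each genotype, against 15.2% of all clusters in control and 18.8% in knockout mice, and 7 and 4 were lower, against 18.9% and 21.8%. The median regional difference of the 32 genes was 0.03 in control and 0.20 in knockout mice, against 0.00 and 0.02 over all clusters. The shares over all clusters include dim ones, whereas 31 of the 32 genes lay above the median of clusters of 1 symbol. With dim clusters filtered out, 11 of 31 genes were higher and 4 lower in control mice at an adjusted p under 0.05. The shares of the clusters left were 13.5% and 20.3%. In knockout mice 13 were higher and 4 lower, against 16.9% and 27.7%.

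*Apaf1* had the largest regional difference of the 32 genes in both genotypes. Its control values were 8.17, 7.90 and 7.97 in S-IECs and 6.97, 6.67 and 6.89 in L-IECs, far apart, for a log2 difference of 1.17 (standard error 0.12, limma adjusted p = 0.00019), or 2.25-fold. In knockout mice it was 1.24 (adjusted p = 7.13e-05), or 2.36-fold. *Casp8* was also higher in S-IECs, at 9.53, 9.63 and 9.71 against 9.32, 9.25 and 9.02 in control mice (0.43, adjusted p = 0.0374) and 9.61, 9.58 and 9.64 against 9.16, 9.15 and 9.08 in knockout mice (0.48, adjusted p = 0.00776). *Casp6* ran the other way. It read 5.58, 5.58 and 5.55 in control S-IECs and 6.67, 6.29 and 6.68 in control L-IECs, without overlap, which gave −0.97 (standard error 0.13, adjusted p = 0.000731). In knockout mice, values of 5.86, 6.09 and 5.65 against 6.49, 6.32 and 6.66 gave −0.62 (adjusted p = 0.0129). *Casp9* did not take part, at 0.01 and 0.05.

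Of the death receptors, *Tnfrsf1a*, through which TNF signals, was the most regional. It read 8.83, 8.61 and 8.69 in control S-IECs and 7.94, 7.82 and 7.78 in control L-IECs, a difference of 0.86 (standard error 0.11, limma adjusted p = 0.000562). In knockout mice, 8.97, 8.90 and 8.64 against 7.55, 7.69 and 7.75 gave 1.17 (adjusted p = 0.000149), or 2.26-fold. No ileal array overlapped a colonic one. *Fas* was higher in S-IECs by 0.43 in control mice (adjusted p = 0.041) and by 0.80 in knockout mice (adjusted p = 0.00196), where 6.72, 6.41 and 6.53 stood against 5.94, 5.70 and 5.63. The brake gene *Cflar* read 7.03, 7.15 and 7.06 against 6.83, 6.61 and 6.69 in control mice (0.37, adjusted p = 0.0431) and 6.97 ± 0.02 against 6.69 ± 0.06 in knockout mice (SD, n = 3, no overlap), where the difference of 0.29 had an adjusted p of 0.0733, so that it passed in the control mice alone. *Tnfrsf10b* and *Fadd* passed in neither.

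Among the BCL2 proteins, *Bcl2l1* was higher in S-IECs. Control values of 6.91, 6.79 and 6.70 against 6.39, 6.38 and 6.33 differed by 0.43 (standard error 0.10, limma adjusted p = 0.0188), and knockout values of 7.04, 6.84 and 7.12 against 6.20, 6.38 and 6.33 by 0.70 (adjusted p = 0.00237). *Bcl2* differed the other way, with control values of 7.45, 7.55 and 7.46 against 7.66, 7.82 and 7.65. The groups were separate but the difference of −0.22 had an adjusted p of 0.205. In knockout mice, 6.84, 6.81 and 6.76 against 7.65, 7.46 and 7.48 gave −0.73 (SE 0.11, adjusted p = 0.00107), so *Bcl2* was called lower in the ileum in the knockout mice alone. Its dimmer cluster had a regional difference of 0.34 in the knockout mice (adjusted p = 0.0906).

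The effector gene *Bak1* read 8.88, 8.97 and 9.06 in control S-IECs and 8.57, 8.38 and 8.55 in control L-IECs, a difference of 0.47 (limma adjusted p = 0.0162), and 9.13, 9.03 and 9.10 against 8.66, 8.54 and 8.63 in knockout mice, a difference of 0.48 (adjusted p = 0.0092). *Bok*, a relative of BAX and BAK, was separate between regions in both genotypes, at 6.57, 6.35 and 6.42 against 6.02, 6.15 and 6.10 in control mice (0.36, adjusted p = 0.0519) and 6.46, 6.38 and 6.75 against 6.18, 5.95 and 6.09 in knockout mice (0.46, adjusted p = 0.0324).

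The BH3-only genes divided. *Pmaip1* was higher in S-IECs by 0.47 in control mice (adjusted p = 0.0145), where 6.84, 6.98 and 6.79 stood against 6.33, 6.43 and 6.45, and by 0.99 in knockout mice (limma adjusted p = 0.000345), or 1.98-fold, where 7.40, 7.42 and 7.70 stood against 6.44, 6.55 and 6.56. *Bid*, which links the receptor route to the mitochondrion, read 5.82, 5.79 and 5.91 against 5.01, 5.41 and 5.46 in control mice (0.54, adjusted p = 0.0236) and 5.76, 5.95 and 6.49 against 5.55, 5.58 and 5.47 in knockout mice (0.53, adjusted p = 0.0584). *Bmf* was lower in S-IECs in control mice, at 4.63, 5.01 and 4.67 against 5.45, 5.22 and 5.35 (−0.57, adjusted p = 0.0159), but overlapped in knockout mice (−0.10, adjusted p = 0.675). *Bcl2l11*, *Bad*, *Bik*, *Hrk* and *Bbc3* passed in neither genotype.

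Of the IAP genes, *Birc2*, encoding cIAP1, was higher in S-IECs. Control values of 6.52, 6.32 and 6.27 against 5.91, 5.85 and 5.98 differed by 0.46 (limma adjusted p = 0.0211), and knockout values of 7.01, 6.37 and 6.47 against 6.18, 5.63 and 5.98 by 0.69 (adjusted p = 0.0322). *Birc3*, *Xiap* and *Diablo* passed in neither genotype.

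**Figure D4:**
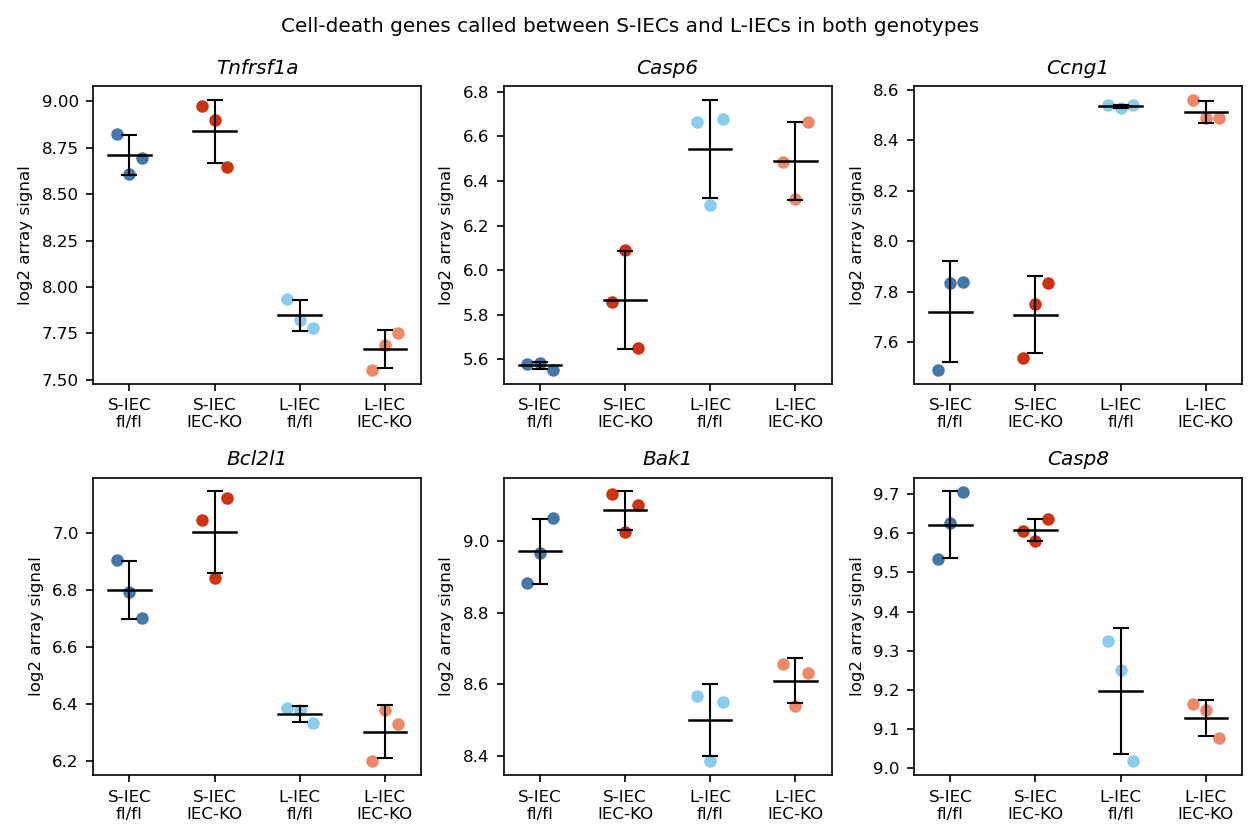
Log2 array signal (vertical axes, each with its own range) of 6 genes called between regions in both genotypes; each point is 1 array, the long bar is the mean and the whiskers are the SD of 3 arrays. *Tnfrsf1a* lies at 8.61 to 8.97 in S-IECs and 7.55 to 7.94 in L-IECs, while *Casp6* and *Ccng1* lie lower in S-IECs.

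For p53 targets, the 250 bases before a RefSeq start are shown (GRCm38.p6). They are those of *Cdkn1a* (chr17:29090729-29090978, plus strand), *Mdm2* (chr10:117710759-117711008, minus strand) and *Ccng1* (chr11:40755287-40755536, minus strand). These 3 textbook targets are shown because they had unlike patterns over the groups. Capitals mark each match to the p53 half-site consensus, and the sequences read 5′ to 3′ on the gene's strand.
Cdkn1a: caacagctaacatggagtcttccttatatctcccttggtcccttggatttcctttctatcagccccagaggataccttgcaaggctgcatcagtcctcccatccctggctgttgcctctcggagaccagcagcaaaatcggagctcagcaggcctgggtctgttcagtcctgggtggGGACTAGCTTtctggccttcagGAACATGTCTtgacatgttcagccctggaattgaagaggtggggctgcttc
Mdm2: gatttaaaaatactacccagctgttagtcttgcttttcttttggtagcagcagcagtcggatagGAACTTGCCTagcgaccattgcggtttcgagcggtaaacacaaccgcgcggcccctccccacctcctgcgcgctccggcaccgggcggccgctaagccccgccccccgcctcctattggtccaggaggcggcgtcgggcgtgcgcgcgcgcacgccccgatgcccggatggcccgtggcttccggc
Ccng1: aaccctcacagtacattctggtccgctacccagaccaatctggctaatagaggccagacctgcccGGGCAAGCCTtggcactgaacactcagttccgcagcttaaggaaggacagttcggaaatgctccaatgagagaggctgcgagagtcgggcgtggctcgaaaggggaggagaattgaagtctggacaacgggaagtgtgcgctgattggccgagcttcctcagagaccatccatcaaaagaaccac

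The *Cdkn1a* window shown holds 2 half-sites, which begin 73 and 51 bases before the start. They lie no more than 13 bases apart, which makes a full site. Another RefSeq window of *Cdkn1a* (chr17:29093519-29093768) held 0 half-sites, and the window shown was chosen because it held a match. The windows of *Mdm2* and *Ccng1* hold 1 half-site each, beginning 186 and 185 bases before the start. The half-site consensus is its own reverse complement, so a match counts for both strands. It was found in 7.13% of all 32851 RefSeq promoter windows of this length and a full site in 0.0639%. Of the measured genes 27 had a window, 39 windows in all. Of these, 4 (10.3%) held a half-site, namely those shown of *Cdkn1a*, *Mdm2* and *Ccng1* and 1 of *Bmf*. The core of the element that NFAT5 binds, TGGAAA on either strand, was in 18.6% of all windows and in 2 of the 39 (5.13%), both of *Bmf*. Such matches describe letters only.

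*Ccng1*, encoding cyclin G1, was lower in the ileum. It read 7.49, 7.84 and 7.84 in control S-IECs and 8.54, 8.53 and 8.54 in control L-IECs, well separated, for a difference of −0.81 (standard error 0.12, limma adjusted p = 0.00166), which is 1.76-fold. In knockout mice it read 7.54, 7.75 and 7.83 against 8.56, 8.49 and 8.49 (−0.80, adjusted p = 0.000926). *Mdm2* overlapped between regions in control mice (0.05) but was higher in S-IECs of knockout mice, at 7.44, 7.44 and 7.55 against 6.85, 7.14 and 7.04 (0.46, adjusted p = 0.018). *Cdkn1a* read 9.62, 9.82 and 9.81 in control and 9.64, 9.58 and 9.90 in knockout S-IECs, and 9.76, 9.73 and 9.80 in control and 9.60, 9.84 and 9.63 in knockout L-IECs, so that all 4 groups overlapped and its regional differences were −0.01 (standard error 0.11) and 0.02 (standard error 0.13). *Perp* and *Zmat3* passed in neither genotype.

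**Figure D5:**
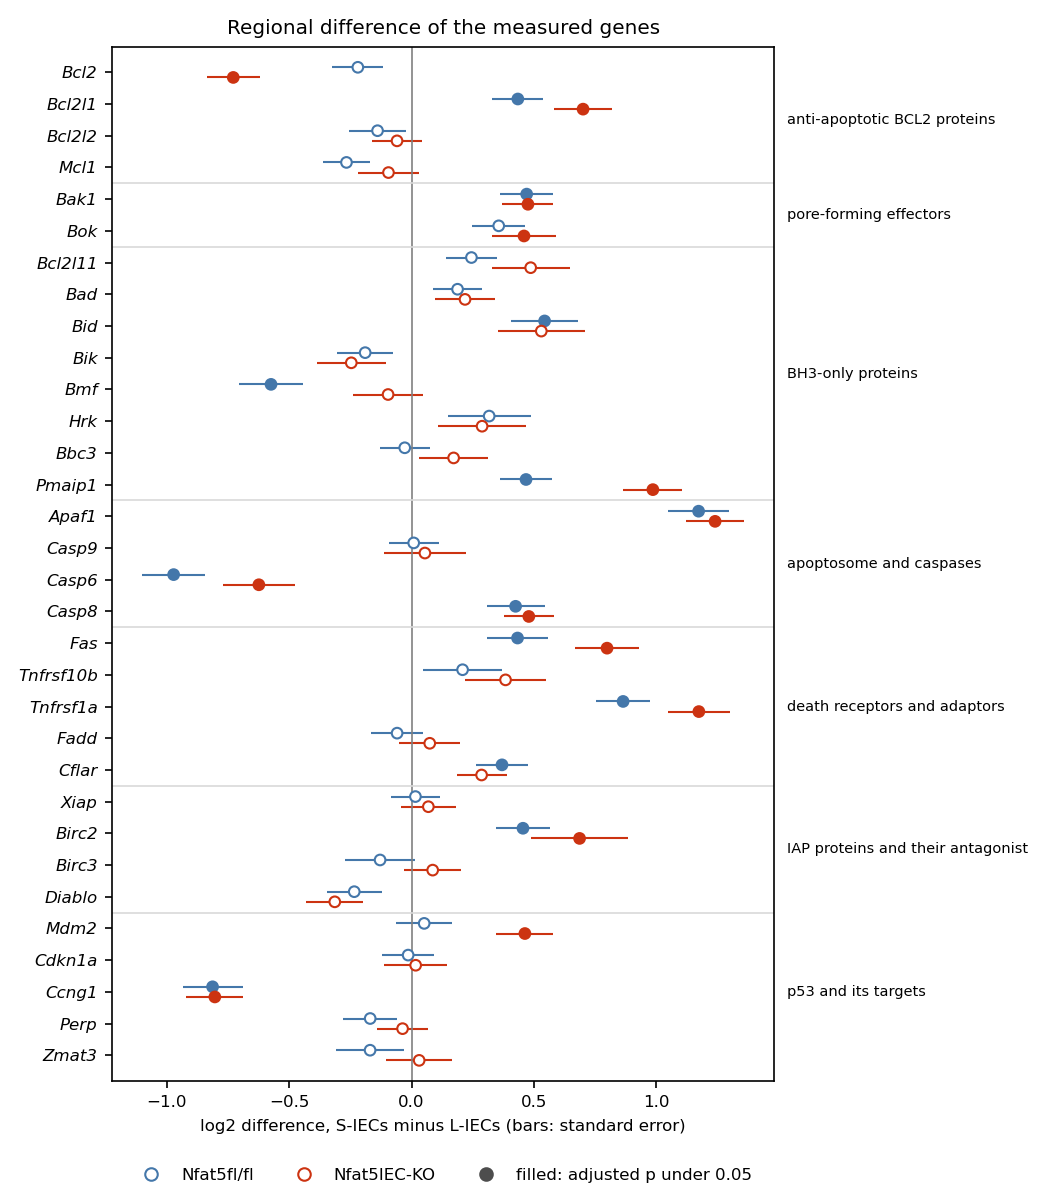
Log2 difference between S-IECs and L-IECs for each of the 32 genes (horizontal axis, bars are the standard error) in control and in knockout mice, ordered by role; filled points passed an adjusted p of 0.05. *Apaf1* (1.17 and 1.24) and *Tnfrsf1a* (0.86 and 1.17) lie farthest to the right, and *Casp6* and *Ccng1* farthest to the left in control mice.

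The regional calls differ in how firm they are. Those of *Apaf1*, *Tnfrsf1a* and *Ccng1* in both genotypes, of *Casp6* in control mice, and of *Bcl2*, *Bcl2l1*, *Bak1*, *Pmaip1*, *Casp8* and *Fas* in knockout mice held without any 1 array. In control mice the count of 10 higher genes fell to 4 without S-IEC replicate 1 or L-IEC replicate 1, to 5 without S-IEC replicate 2 or 3 or L-IEC replicate 2, and to 6 without L-IEC replicate 3. *Bak1* then lost its call without S-IEC replicate 3 (adjusted p = 0.0614) or L-IEC replicate 2 (0.0541), and *Pmaip1* without S-IEC replicate 2 (0.0565) or L-IEC replicate 1 (0.0557). *Birc2* lost it without S-IEC replicate 1 (0.0705) and L-IEC replicates 1 (0.0618) and 2 (0.0644). *Bcl2l1* (0.0518 to 0.0652) did so without S-IEC replicate 1 or 2 or L-IEC replicate 1 or 3, *Bid* (0.0539 to 0.0769) without any S-IEC array or L-IEC replicate 1, and *Bmf* (0.0511 to 0.062) without replicate 1 or 3 of either tissue. *Casp8* (0.0603 to 0.119) kept its call only without L-IEC replicate 1, *Fas* (0.0926 to 0.125) only without S-IEC replicate 2, and *Cflar* (0.0522 to 0.128) in no case. The labels use the same mouse numbers in both tissues without saying whether these are the same animals, and with that number as a block *Casp8* (0.0779), *Fas* (0.0541) and *Cflar* (0.0897) lost their calls in control mice.

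In knockout mice, *Casp6* lost its call without L-IEC replicate 3 (limma adjusted p = 0.0532) and *Mdm2* without S-IEC replicate 3 (0.0584) or L-IEC replicate 1 (0.0727). *Birc2* lost it without S-IEC replicate 1 (0.0883) or 3 (0.0508) or L-IEC replicate 2 (0.109) or 3 (0.0739). *Bok* (0.0516 to 0.113) kept it only without S-IEC replicate 2. With S-IEC control replicates 2 and 3 both left out, *Apaf1* (1.33), *Tnfrsf1a* (0.98), *Casp6* (−0.96), *Ccng1* (−1.04) and *Bmf* (−0.71) kept their calls in control mice and the other 8 did not, while *Hrk*, at 4.01 on the remaining array and 3.36 and 3.45 on those left out, was then called higher. The remaining array is assumed to vary like the L-IEC controls.

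Markers of other cells also differed by region. Of 10 T cell and intraepithelial lymphocyte markers, 5 were higher in S-IECs of control mice and 6 in those of knockout mice at an adjusted p under 0.05. Their means were 4.94 to 5.41 on S-IEC and 4.40 to 4.55 on L-IEC arrays, and of the defining markers *Cd3e* averaged 6.87 over the 12 arrays but *Cd3d* and *Cd3g* 4.39 and 4.47. Myeloid markers averaged 4.59 to 4.90 against 4.05 to 4.36, B and plasma cell markers 4.11 to 4.58 against 3.94 to 4.17, and stromal and endothelial markers 4.55 to 4.75 against 4.68 to 4.98. The median of all 41345 clusters on an array, with or without a symbol, was 4.48 to 4.57. Over clusters with a single symbol, the median over the 12 arrays was 4.81. The T cell marker means of all S-IEC arrays lay above these medians. Some myeloid means of S-IECs (up to 4.90) and some stromal and endothelial means of L-IECs (up to 4.98) did so too. The part of these other cells in the regional differences of receptor genes such as *Fas* and *Tnfrsf1a* was not tested.

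Other genes of the same pathways were taken from 4 further lists. In S-IECs 0 of their 84 measured genes differed between genotypes at an adjusted p under 0.05. At an unadjusted p under 0.05, 1 of 17 other BCL2-related genes was lower and 0 higher, 4 of 18 other caspases and mitochondrial factors lower and 2 higher, 2 of 19 other death receptor genes lower and 1 higher, and 4 of 30 other p53 pathway genes lower and 1 higher, against the 8.23% and 5.81% of all clusters. Those lower with the smallest p included *Parp1*, a nuclear enzyme cut by caspases (−0.74, standard error 0.14, limma adjusted p = 0.130), *Birc5*, the mitotic IAP protein survivin (−0.74), and *Casp2* (−0.38). *Atm* and *Atr*, the damage kinases upstream of p53, differed by −0.63 and −0.54, and *Ripk3*, the necroptosis kinase gene, by −0.45. Among those higher were *Tnfsf10*, the ligand TRAIL (0.60, adjusted p = 0.138), and the p53 target *Sesn1* (0.52, adjusted p = 0.134). In L-IECs *Parp1* differed by 0.31 and *Tnfsf10* by 0.43, and the interaction of *Parp1* was −1.04 (standard error 0.17, adjusted p = 0.130).

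Regionally, these lists held larger differences than the 32 genes. *Bcl2l15*, a BCL2 relative of gastrointestinal epithelium, was higher in S-IECs by 4.67 in control and 4.65 in knockout mice (limma adjusted p = 1.99e-07 and 6.02e-08). *Naip5* and *Naip6*, IAP family members that sense bacterial flagellin, were higher by 2.52 and 1.45 in control mice, *Sesn1* by 2.45 and *Tnfsf10* by 1.56, each with an adjusted p under 0.05, so that TRAIL followed the direction of *Tnfrsf1a* and *Fas* while its receptor gene *Tnfrsf10b* had a difference of 0.21 that did not pass. *Plk2* (−1.78), *Tnfrsf23* (−1.81) and *Casp14* (−1.45) were lower. At an adjusted p under 0.05 in control mice, 4 of 17 other BCL2-related genes were lower and 3 higher, 1 of 18 other caspases and mitochondrial factors lower and 4 higher, 6 of 19 other death receptor genes lower and 1 higher, and 9 of 30 other p53 pathway genes lower and 2 higher, against 10.4% lower and 7.2% higher of all clusters. In knockout mice these counts were 6 and 3, 2 and 4, 6 and 3, and 9 and 3, against 14.7% and 10%.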

How the data were processed

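The deposited log2 values, 1 per transcript cluster and array of an Affymetrix Mouse Gene ST array, were made by the authors in Transcriptome Analysis Console against mm10, per the labels. For its version and its normalization, no value is given in the sources used here. Array scan dates were not used. Of 41345 clusters, 25341 carried a gene symbol in the platform annotation (23521 carried 1) and were tested without a filter. All value columns had a sample (0 without), and r between arrays of a group was 0.988 to 0.991. For arrays, their number limits the precision.

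Genotypes (*Nfat5*IEC-KO minus *Nfat5*fl/fl within a tissue) and regions (S-IECs minus L-IECs within a genotype) were each compared on 6 arrays, and the interaction on 12, with limma 3.58.1 (lmFit, eBayes) in R 4.3.3 and Benjamini-Hochberg adjustment over all 25341 clusters, which was tested on simulated data. An exact permutation test of 3 against 3 arrays could not go below 0.1. The genes, the further lists and the markers were chosen with earlier results of these data known. Array values and full statistics are given for genes at an unadjusted p under 0.05 between genotypes or in the interaction, and at an adjusted p under 0.05 between regions; of the further lists up to 3 genes per comparison are named by smallest p. Other settings are described in the closing section. Sequences are RefSeq's, GRCm38.p6.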

Additional observations from a re-analysis of the deposited data

Results flagged for a closer look

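For 4 genes the genotype difference in S-IECs differed from that in L-IECs at an unadjusted p under 0.05 in the interaction test, none after limma's adjustment. That value was −0.51 for *Bcl2*, from −0.68 in S-IECs and −0.17 in L-IECs. It was 0.52 for *Pmaip1*, from 0.63 and 0.11. For *Mdm2* it was 0.41, from 0.31 and −0.10, and for *Bmf* 0.48, from 0.31 and −0.17. All 3 knockout arrays of S-IECs lay below the control mean for *Bcl2* and above it for *Pmaip1*, *Mdm2* and *Bmf*. At the same limit stood 10.8% of all named clusters and 12.5% of the 32 genes.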

How the results depend on the processing

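Over 37 single-gene results and 594 recomputed values, 0 changed direction, apart from the dimmer *Bcl2* cluster, which gave 0.15 for genotype in S-IECs, 0.34 between regions in knockout mice and 0.12 for the interaction. Of 26 regional calls, 13 held under every alternative. For genotype in S-IECs, at an adjusted p under 0.05, 1 gene was lower and 2 higher with all 12 arrays in one fit (*Bcl2* 0.0126, *Pmaip1* 0.0203, *Fas* 0.0474), against 1.75% and 0.501% of all clusters, 1 lower and 1 higher with a trended, robust variance prior (*Bcl2* 0.0135, *Pmaip1* 0.0267), against 1.24% and 0.655%, and 1 lower with dim clusters filtered out (*Bcl2* 0.0478), against 0.133% and 0.0799%. With S-IEC control replicates 2 and 3 left out, an alternative chosen after seeing the data, the genes higher in the knockout at an unadjusted p numbered 1, and those higher in the ileum of control mice at an adjusted p numbered 3. In L-IECs 1 gene was lower at an unadjusted p with the trended prior and with the methods' t-test. The genes higher in the ileum of control mice numbered 5 with every cluster tested and 5 with the methods' t-test. The cause was not tested. Quantile normalization, median centring and array weights moved no count of genes by over 1.5 times.

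Leaving out 1 array gave 3 to 5 genes higher in knockout S-IECs and 0 to 1 in knockout L-IECs at an unadjusted p, and 2 to 6 in the interaction. At an adjusted p it gave 4 to 6 higher and 2 to 3 lower in the ileum of control mice, and 7 to 11 higher and 2 to 3 lower in that of knockout mice.

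Same-numbered samples of the groups compared deviated together with r of −0.04 to 0.10, which does not pair them by the data, and the labels do not say whether a number marks the same mouse in both tissues. With the replicate number as a block, the genes higher in the ileum of control mice numbered 7 in place of 10 (*Casp8*, *Fas* and *Cflar* had adjusted p of 0.0779, 0.0541 and 0.0897), and those of knockout mice 10; at an unadjusted p, the genotype counts with the block were 5 higher and 1 lower in S-IECs and 1 higher in L-IECs.

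With 3 arrays a group, standard errors of the 32 genes were 0.10 to 0.22 between genotypes in S-IECs.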
